A study of Danio rerio with 24 samples.

Results

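The genes described here are those whose products build the respiratory chain and the ATP synthase, in whole zebrafish embryos at 4 days post fertilization (dpf). They were chosen by symbol: genes named mt-nd, mt-co, mt-cyb or mt-atp, which lie in the mitochondrial genome, and genes whose symbols begin with nduf, sdha to sdhd, uqcr, cox4 to cox8 or atp5, which lie in the nucleus. A gene also needed a level of at least 1 TPM, a length-scaled share of all transcripts, in at least 3 of 24 libraries. The rule kept 114 of 25432 genes, and every gene with a matching symbol passed the TPM minimum. The gene nearest to that minimum was ndufa4l2b, which reached 1 TPM in 5 libraries. Of the 114, 13 are mitochondrially encoded subunits, 87 are nuclear subunits, 11 are nuclear assembly factors (ndufaf and sdhaf genes) and 3 are a supercomplex factor (cox7a2l) and inhibitors of the ATP synthase (atp5if1a and atp5if1b). Genes written in capitals in the tables fall outside the symbol rule, among them a COX5B entry with a median of 1117 TPM.

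The chain sits in the inner mitochondrial membrane. Complex I (NADH dehydrogenase, nduf and mt-nd genes) and complex II (succinate dehydrogenase, sdh genes) pass electrons to ubiquinone, complex III (uqcr genes and mt-cyb) passes them to cytochrome c, complex IV (cytochrome c oxidase, cox and mt-co genes) passes them to oxygen, and complex V (ATP synthase, atp5 and mt-atp genes) uses the proton gradient so built to make ATP. The hydrophobic cores of complexes I, III, IV and V are encoded in mitochondrial DNA and transcribed as long precursors that are cut into single messages, while all of complex II and the other subunits are encoded in the nucleus, so that products of both genomes have to be assembled together. Heart and skeletal muscle are rich in these complexes.

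The study asked how efficiently and how selectively a heat-induced CRISPR system, CRISPR-Q, lowers or raises a chosen gene. In 4 lines, triple transgenic embryos (3TG) carried the CRISPR-Q components together with a guide RNA, and double transgenic embryos of the same line (2TG) carried the components and lacked the guide. The guides were aimed at smn1 or at tardbp with its paralog tardbpl for knockdown (CRISPR-QKD), and at lin28a or sox9b for transcriptional activation (CRISPR-Qa). All 8 groups, 2TG included, received a heat treatment of 1 h at 2 and at 3 dpf, which induces QFvpr from an hsp70l promoter, and were raised at 28.5 °C with 14 h of light and 10 h of dark. Each group held 3 libraries of whole-embryo RNA. The labels do not say whether replicates came from separate clutches, so p-values measure only the spread between these samples. In bulk RNA of this kind, fewer cells of a type and less RNA per cell cannot be told apart.

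In each line the targeted genes lay on the side the guide was built for, with no overlap between groups. The smn1 level was 13.03 to 17.3 TPM in 3TG and 24.6 to 27.9 TPM in 2TG, and tardbp stood at 48.3 to 80.1 TPM in 3TG against 109 to 146 TPM in 2TG, with tardbpl at 76.7 to 121 TPM in 3TG and 180 to 216 TPM in 2TG. The lin28a level was 2.69 to 8.41 TPM in 3TG and 0.310 to 1.23 TPM in 2TG, and sox9b stood at 31.5 to 39.7 TPM in 3TG against 17.1 to 18.4 TPM in 2TG. Adjusted p of the 5 targets over all genes ran from 0.340 to 0.980 in limma. Listed TPM summed to 983631 to 990345 in 23 libraries and to 778190 in the 3TG replicate 3 library of the tardbp line. In that library 3 genes held 34.3% of the full TPM scale, of which all listed genes together held 77.8%. Class and list medians, overlap counts and the nuclear members named in tardbp are therefore given with and without that library, and other tardbp values include it. Values are written with 6 decimals in 10 libraries (all of sox9b, smn1 3TG replicate 1, smn1 2TG replicates 1 and 2, and tardbp 2TG replicate 2) and with 6 significant digits in the other 14. What lies behind the 2 formats is not given in the sources used here. As a check of the whole-embryo label, markers of 10 tissues were all found, with summed levels of 28935 to 82643 TPM for skeletal muscle, 4099 to 12666 TPM for liver and 560 to 5055 TPM for intestine. The only marker genes that passed limma were 2 hatching gland genes, which were lower in tardbp 3TG. Hatching gland markers summed to 139, 201 and 40.6 TPM in tardbp 3TG and to 535, 129 and 188 TPM in 2TG. The highest sum was that of 2TG replicate 1.

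Mitochondrially encoded messages were the most abundant members. As medians over the 24 libraries, mt-co2 reached 17957 TPM, mt-co1 15036 TPM and mt-co3 12439 TPM, which together form the catalytic core of complex IV. They were followed by mt-atp6 of the proton channel of ATP synthase at 8825 TPM and by mt-cyb, the cytochrome b of complex III, at 7361 TPM. The 7 complex I messages ran from 1838 TPM for mt-nd5 to 5679 TPM for mt-nd4l, with mt-nd1 at 4452, mt-nd3 at 3655, mt-nd2 at 3488, mt-nd4 at 2689 and mt-nd6 at 2161 TPM. TPM are scaled by length, so these levels can be set side by side, with exceptions for neighbours that share transcripts. mt-nd4l abuts mt-nd4 and mt-atp8 abuts mt-atp6, and reads of such neighbours can be split between them in ways the tables do not show. mt-nd6 lies on the other strand, and whether counting used strand is not given in the sources used here.

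The exception among mitochondrial genes was mt-atp8, a small subunit of ATP synthase, at a median of 54.9 TPM. It held 187 to 396 TPM in the 10 libraries written with 6 decimals and 0 to 59.8 TPM in the 14 written with 6 significant digits, where it is listed at 0 in 5 libraries. Its levels separated by number format without overlap. In tardbp it stood at 0, 54.9 and 0 TPM in 3TG and at 48.6, 396 and 0 TPM in 2TG, and the 2TG library with 396 TPM is the only tardbp library with 6 decimals. In sox9b, whose 6 libraries share a format, it stood at 249, 210 and 202 TPM in 3TG and at 231, 187 and 193 TPM in 2TG.

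**Figure D1:**
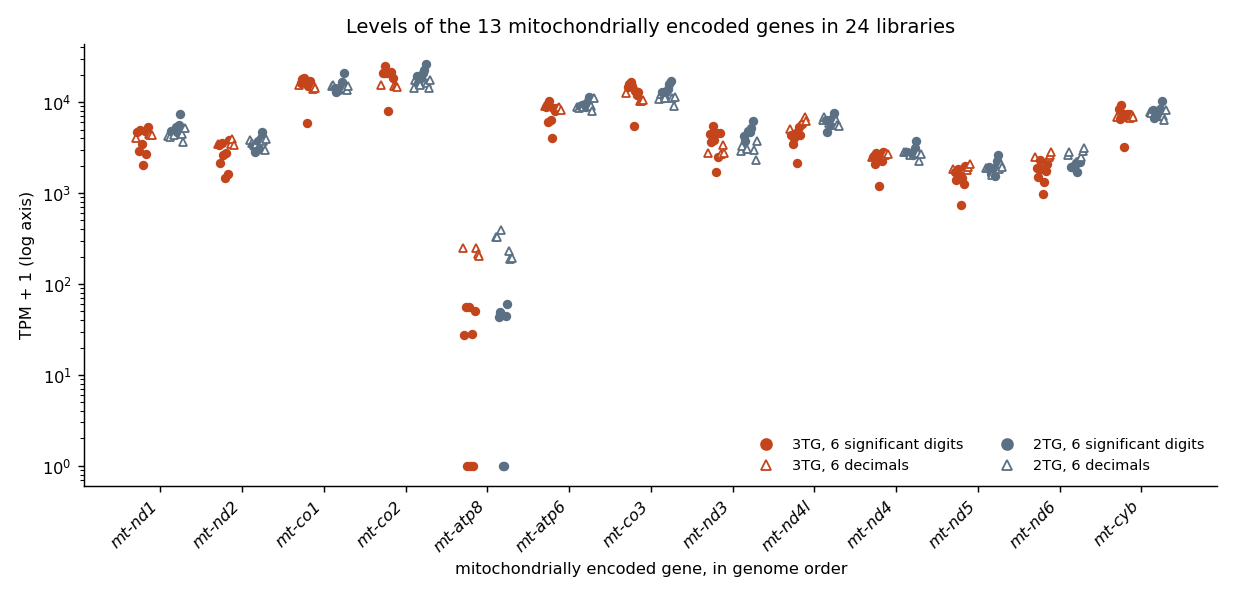
Level of each of the 13 mitochondrially encoded genes (vertical axis, TPM + 1 on a log scale) in 24 libraries, with genes in genome order; red is 3TG, grey is 2TG, and triangles mark libraries written with 6 decimals. The cytochrome oxidase messages lie highest, and mt-atp8 is the gene whose libraries separate by number format, at 187 to 396 TPM for triangles and 0 to 59.8 TPM for circles.

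Nuclear subunits lay well below the mitochondrial messages and differed by complex. The median subunit of complex V stood at 500 TPM (499.65 before rounding), of complex III at 213, of complex IV at 163, of complex I at 157 and of complex II at 77.0 TPM. The complex IV median counts scarce paralogs and leaves out the COX5B entry in capitals. The most abundant nuclear member of each complex was ndufb8, an accessory subunit of complex I, at 406 TPM; sdha, the flavoprotein of complex II, at 202 TPM; uqcrq of complex III at 566 TPM; cox8a of complex IV at 1160 TPM; and atp5mc3b, which encodes the membrane ring subunit of ATP synthase, at 1306 TPM. Next in complex V was atp5f1b, the catalytic beta subunit, at 1256 TPM. Assembly factors, which help to build complexes and are not part of the finished enzyme, ran from 6.02 TPM for sdhaf1 to 47.0 TPM for ndufaf1.

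Set against each other per gene, mitochondrial subunits exceeded nuclear subunits of the same complex by factors that also differed by complex. The mean level per mitochondrial gene over the mean level per nuclear gene had a median over libraries of 39.2 in complex IV, 27.0 in complex III, 18.6 in complex I and 8.74 in complex V, where mt-atp8 lowers it. In complex IV the factor is raised by scarce paralogs that count as genes, such as ndufa4l2b (mean 0.293 TPM) and ndufa4l2a (2.22 TPM). It also leaves out the COX5B entry in capitals, with a median of 1117 TPM. The order of the complexes can thus depend on which rows are counted. In complex I this ratio did not overlap between groups in the smn1 line, where it was 17.6, 17.4 and 16.5 in 3TG against 19.1, 19.4 and 20.8 in 2TG. In lin28a the complex I ratio was 17.3, 15.0 and 18.4 in 3TG against 18.5, 19.99 and 26.0 in 2TG, where the nearest libraries of the groups almost touch. In tardbp and sox9b the complex I ratios overlapped between 3TG and 2TG.

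Complex IV showed the other wide spread. Its ratio was 37.5, 45.9 and 62.2 in smn1 3TG and 35.6, 37.6 and 45.7 in smn1 2TG, and it was 51.8, 58.9 and 38.8 in tardbp 3TG and 39.2, 35.0 and 39.6 in tardbp 2TG. These groups overlap in both lines, with the highest ratios of each line in 3TG libraries. The lin28a libraries held complex IV ratios of 43.0, 49.1 and 39.2 for 3TG against 44.0, 46.1 and 59.8 for 2TG, with the highest in a 2TG library. The libraries with 6 decimals held complex IV ratios of 33.9 to 37.6 in the 3 lines that have such libraries, against 38.8 to 62.2 in the libraries with 6 significant digits.

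Summed over the 13 genes, mitochondrial messages made up 4.74% to 12.2% of the listed TPM. The sums were 81757, 92329 and 84560 TPM in smn1 3TG against 81439, 87251 and 89199 TPM in smn1 2TG, and 104585, 87426 and 36909 TPM in tardbp 3TG against 78691, 80525 and 89067 TPM in tardbp 2TG. They were 87552, 82236 and 89001 TPM in lin28a 3TG against 89256, 103269 and 120637 TPM in lin28a 2TG, and 78774, 82306 and 78949 TPM in sox9b 3TG against 82571, 73620 and 89715 TPM in sox9b 2TG. Among these 4 comparisons the groups did not overlap in lin28a, where 3TG replicate 3 lay close under 2TG replicate 1. The lowest sum was that of tardbp 3TG replicate 3, the library whose listed TPM sum is low.

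The ratio of the mitochondrial sum to the sum over nuclear subunits is free of that scaling. It was 3.17, 3.45 and 4.02 in smn1 3TG against 3.18, 3.29 and 3.76 in smn1 2TG, and 3.96, 4.09 and 3.13 in tardbp 3TG against 3.14, 3.03 and 3.29 in tardbp 2TG. It was 3.21, 3.51 and 3.12 in lin28a 3TG against 3.34, 3.56 and 4.63 in lin28a 2TG, and 3.20, 3.15 and 3.04 in sox9b 3TG against 3.22, 3.08 and 3.03 in sox9b 2TG. The groups overlapped in all 4 lines. tardbp 3TG replicate 3, at 3.13, lay within the range of the tardbp 2TG libraries, while 3TG replicates 1 and 2 lay above it.

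**Figure D2:**
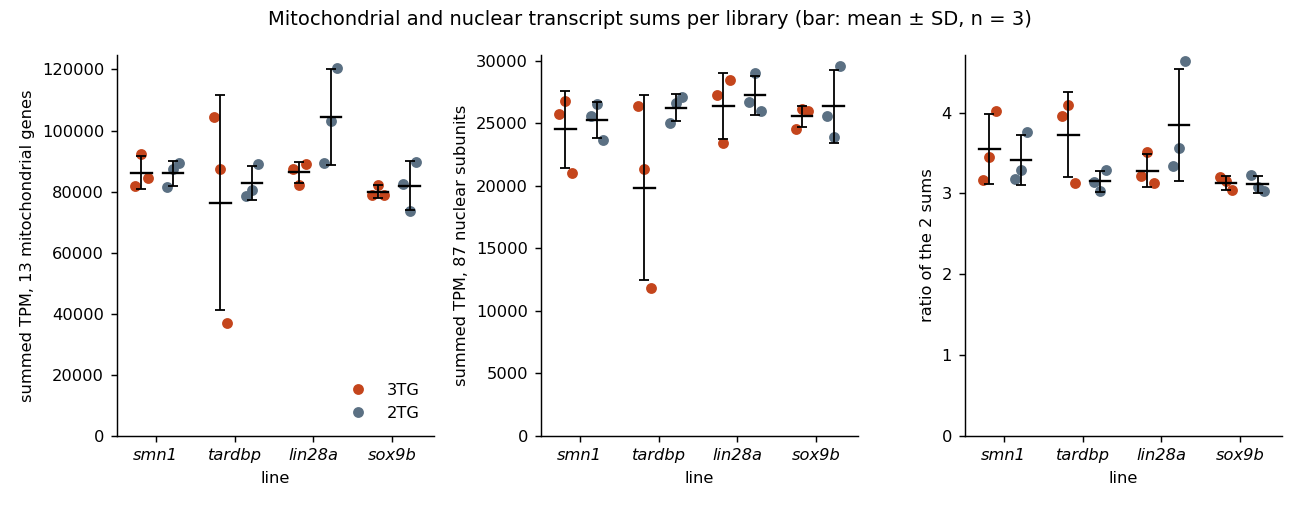
Summed TPM of mitochondrially encoded members, summed TPM of nuclear subunits, and their ratio, per library (points) with mean ± SD (bars, n = 3), 3TG left of 2TG in each line. In lin28a every 3TG mitochondrial sum (82236 to 89001 TPM) lies under every 2TG sum (89256 to 120637 TPM), and the ratio overlaps between groups in each line.

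Each line was then tested gene by gene with limma on log2(TPM + 1), 3 libraries against 3, with Benjamini-Hochberg adjustment over all genes tested. A log2 difference here is 3TG minus 2TG on that scale, which understates changes of genes near 1 TPM. In each line 113 members were tested, all but ndufa4l2b. No member passed an adjusted p of 0.05 in limma in any line. Of all tested genes 0% passed in smn1, lin28a and sox9b, and 0.0103% in tardbp. With library weights in limma, the members called were still 0 in smn1 (0.0509% of all genes), lin28a (0%) and sox9b (0.138%). At an unadjusted p under 0.05, limma gave 0 members higher and 2 lower in smn1 (background 5.87% and 6.44% of all genes), 1 higher and 1 lower in tardbp (0.89% and 12.9%), 0 higher and 2 lower in lin28a (0.7% and 1.08%), and 0 higher and 1 lower in sox9b (0.826% and 0.392%). All differences below are given as values.

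In the smn1 knockdown line the mitochondrially encoded subunits divided by complex. The 3 cytochrome oxidase messages were higher in 3TG by sign, with a median log2 difference of 0.18, and 6 of the 7 complex I messages were lower, with a median of −0.27. Nuclear subunits of the same complexes differed less, with medians of −0.07 in complex IV and −0.07 in complex I, and the median of all genes tested was −0.05. Over the 13 mitochondrial genes the median was −0.21 and over 86 nuclear subunits −0.06, a gap of −0.15. A related measure per library is the median log2 level of mitochondrial genes minus that of nuclear subunits. Its SD between replicates of a group was 0.10, which is a spread of single libraries and not of the gap itself. The mitochondrial median rests on 3TG replicate 3, without which it is −0.04, and the gap was −0.08 without that library and −0.06 without 2TG replicate 3.

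mt-nd4l, a membrane subunit of the proton-pumping arm of complex I, had the largest difference of the 12 mitochondrial genes other than mt-atp8 in smn1. It stood at 5125, 4389 and 3481 TPM in 3TG and at 6286, 6871 and 6421 TPM in 2TG. All 3TG libraries lay below all 2TG libraries (log2 −0.61, SE 0.20; limma adjusted p = 0.355). The difference was −0.36 within the libraries written with 6 decimals and −0.72 within those with 6 significant digits. Its neighbour mt-nd4, another subunit of that arm, stood at 2470, 2483 and 2096 TPM in 3TG and at 2854, 2797 and 2855 TPM in 2TG (log2 −0.28, adjusted p = 0.507 in limma). mt-nd5, at 1828, 1726 and 1392 TPM in 3TG and 1896, 1871 and 1929 TPM in 2TG, likewise did not overlap between groups (log2 −0.21, adjusted p = 0.612 in limma).

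The complex IV messages ran the other way. mt-co1, which carries the oxygen-reducing centre, stood at 15333, 16173 and 17894 TPM in smn1 3TG and at 14909, 15329 and 14358 TPM in 2TG. The groups did not overlap, although 3TG replicate 1 and 2TG replicate 2 nearly met (log2 0.15, SE 0.18; limma adjusted p = 0.726). mt-co3, a core subunit, stood at 12467, 14805 and 15775 TPM in 3TG and at 10710, 12411 and 12790 TPM in 2TG, with 3TG replicate 1 inside the 2TG range (log2 0.26, adjusted p = 0.558 in limma). mt-co2, which takes electrons from cytochrome c, stood at 15604, 21047 and 21145 TPM in 3TG and at 14297, 17318 and 19289 TPM in 2TG, also overlapping. Its lowest level in each group was in a library with 6 decimals. The differences of mt-co1, mt-co2 and mt-co3 were 0.02, −0.01 and 0.11 within the libraries of 6 decimals and 0.24, 0.13 and 0.26 within those of 6 significant digits.

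Among nuclear members in smn1, the smallest p belonged to ndufaf7, a methyltransferase that acts in complex I assembly. It stood at 5.70, 7.26 and 6.10 TPM in 3TG and at 16.2, 10.1 and 12.002 TPM in 2TG, without overlap (log2 −0.89, SE 0.23; unadjusted p = 0.0045, adjusted p = 0.338 in limma). sdhaf4, an assembly factor that binds the flavinated complex II subunit, stood at 25.6, 28.2 and 19.4 TPM in 3TG and at 42.5, 32.6 and 30.4 TPM in 2TG, again without overlap (log2 −0.51, adjusted p = 0.406 in limma). ndufa1, an accessory subunit of the complex I membrane arm, stood at 214, 247 and 192 TPM in 3TG and at 274, 250 and 269 TPM in 2TG. ndufb2, another accessory subunit, was higher in every 3TG library, at 151, 219 and 179 TPM in 3TG and 148, 151 and 146 TPM in 2TG (log2 0.29, adjusted p = 0.530 in limma). cox4i1l overlapped between groups, at 18.0, 15.8 and 6.23 TPM in 3TG and 26.4, 12.6 and 28.1 TPM in 2TG, as did atp5mf, whose level followed the number format.

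In all, 9 members in smn1 were lower in 3TG without overlap between groups and 2 were higher, against backgrounds of 11.2% and 7.96% of all genes tested. The 9 are 7.96% of the 113 members, below the background. Among those 9 were the complex I genes mt-nd4, mt-nd4l, mt-nd5, ndufa1, ndufs3 and ndufs5 and the assembly factors ndufaf7 and sdhaf4. The catalytic and core nuclear subunits ndufs1, ndufv1, sdha, sdhb, uqcrfs1, atp5fa1 and atp5f1b, and the complex IV subunit cox5aa, differed by −0.29 (sdhb) to 0.18 (ndufv1). sdhb is the iron-sulphur subunit of complex II and ndufv1 the NADH-binding subunit of complex I. The sdhb level followed the number format, and its difference was −0.27 within libraries of 6 decimals and 0.02 within those of 6 significant digits. After centring each library on the median of its genes, 5 members were lower without overlap and 0 higher, against 10.3% and 9.19% of all genes.

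In smn1, sums of marker genes of several tissues also differed between groups. Neuron markers summed to 903 to 1063 TPM in 3TG and 753 to 803 TPM in 2TG, with 7 of 8 markers higher by sign. Ionocyte markers, of the mitochondrion-rich cells of the skin, summed to 313 to 391 TPM in 3TG and 217 to 269 TPM in 2TG, with 7 of 8 higher by sign, and photoreceptor markers summed to 1333 to 2449 TPM in 3TG and 979 to 1174 TPM in 2TG. Intestine markers, with 8 of 8 higher by sign, summed to 1117 to 2822 TPM in 3TG and 674 to 1794 TPM in 2TG, and these sums overlapped. Exocrine pancreas markers, with 11 of 11 higher by sign, summed to 2569 to 22337 TPM in 3TG and 1001 to 12822 TPM in 2TG, also overlapping. Without overlap, 5 of 8 neuron, 5 of 8 ionocyte, 4 of 6 photoreceptor, 3 of 8 intestine and 0 of 11 exocrine pancreas markers were higher. The share of all genes higher without overlap was 7.96%. Skeletal muscle markers overlapped, at 70672 to 77698 TPM in 3TG and 64770 to 80107 TPM in 2TG, with none of the 17 at 0. The median of 10 heat shock genes was −1.99 on the log2 scale in this line. The part of these differences in the respiratory chain values was not tested.

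In the tardbp line, values as deposited were lower in 3TG for nearly the whole chain: 13 of 13 mitochondrial genes and 80 of 86 nuclear subunits, with medians of −0.39 and −0.46 on the log2 scale. All genes tested had a median of −0.45 and lay close to both. Without 3TG replicate 3 the medians were 0.01 for mitochondrial genes, −0.11 for nuclear subunits and −0.16 for all genes tested. After median centring, 8 mitochondrial genes were higher and 5 lower, and 39 nuclear subunits were higher and 47 lower. No member was higher in 3TG without overlap and 19 were lower, 16.8% of members, against backgrounds of 0.176% and 29.1% of all genes. Without 3TG replicate 3, 6 were higher and 19 lower, against 10.5% and 29.7%, and after centring 4 were higher and 3 lower, against 7.44% and 8.53%. Other limma models called members here as well: 7 lower with 1 fit over 24 libraries (14.7% of all genes called), 11 higher and 10 lower with library weights (44%), and mt-atp8 alone with a replicate block (0.145%).

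By complex, mitochondrial medians in tardbp depended on scaling. That of complex IV was −0.07 as deposited, 0.37 after median centring and 0.44 without 3TG replicate 3. mt-co3 stood at 16535, 14997 and 5429 TPM in 3TG and at 11048, 10976 and 12974 TPM in 2TG. 3TG replicates 1 and 2 lay above and 3TG replicate 3 below all 2TG libraries. The complex I mitochondrial median was −0.43 as deposited, 0.01 after centring and −0.06 without 3TG replicate 3. mt-nd4l stood at 4060, 4563 and 2143 TPM in 3TG and at 4671, 5968 and 6314 TPM in 2TG, without overlap, also after centring (log2 −0.72, adjusted p = 0.464; −0.28 after centring; −0.38 without 3TG replicate 3; limma).

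Among nuclear members in tardbp, cox7a1 had the smallest p and ran against the table. It encodes a complex IV subunit that in mammals is the isoform of heart and skeletal muscle. It stood at 27.9, 20.7 and 8.89 TPM in 3TG and at 3.76, 6.03 and 15.6 TPM in 2TG, so that 3TG replicate 3 and 2TG replicate 3 overlap (log2 1.16, SE 0.51; unadjusted p = 0.035, adjusted p = 0.351 in limma; 1.61 without 3TG replicate 3). Skeletal muscle markers summed to 70735, 66864 and 28935 TPM in 3TG and to 63474, 71909 and 65765 TPM in 2TG. Heart markers summed to 146, 129 and 55.5 TPM in 3TG and to 170, 96.9 and 112 TPM in 2TG. Their median log2 differences were −0.38 (skeletal muscle) and −0.17 (heart), against −0.45 for all genes. Without 3TG replicate 3 they were 0.04 and 0.34, against −0.16 for all genes. The part of these tissues in the cox7a1 values was not tested.

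Nuclear members with low log2 differences in tardbp lay in several complexes. Medians of nuclear subunits were −0.48 in complex I, −0.48 in II, −0.53 in III, −0.35 in IV and −0.48 in V, against −0.45 for all genes. Without 3TG replicate 3 they were −0.15, −0.06, −0.13, 0.01 and −0.17 in the same order, against −0.16 for all genes. atp5if1a, which inhibits ATP hydrolysis by the synthase, stood at 153, 156 and 73.7 TPM in 3TG and at 196, 262 and 227 TPM in 2TG (log2 −0.90, SE 0.42; limma adjusted p = 0.360; −0.55 without 3TG replicate 3). atp5mc1, which encodes the membrane ring subunit, stood at 536, 281 and 260 TPM in 3TG and at 730, 562 and 621 TPM in 2TG (log2 −0.90, adjusted p = 0.368 in limma; −0.71 without 3TG replicate 3). Neither overlapped between groups. After centring both differences were −0.46, and atp5if1a alone of the pair stayed free of overlap. atp5mc3a, a further ring subunit gene, stood at 225, 192 and 106 TPM in 3TG and at 295, 278 and 266 TPM in 2TG (log2 −0.75, and −0.43 without 3TG replicate 3). cox8a, the most abundant nuclear complex IV message, stood at 868, 809 and 503 TPM in 3TG and at 1061, 1355 and 1218 TPM in 2TG (log2 −0.77, adjusted p = 0.402 in limma; −0.52 without 3TG replicate 3), without overlap as deposited and after centring.

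Other tardbp members without overlap included uqcrfs1, the Rieske iron-sulphur protein of complex III, at 58.3, 46.6 and 26.7 TPM in 3TG and 61.9, 87.9 and 61.6 TPM in 2TG (log2 −0.72, adjusted p = 0.403 in limma; −0.41 without 3TG replicate 3). ndufaf3, a complex I assembly factor, stood at 32.2, 28.1 and 14.1 TPM in 3TG and at 40.5, 50.6 and 36.1 TPM in 2TG (log2 −0.81, and −0.47 without 3TG replicate 3). These genes lost their separation after centring. The scarce ndufa4l2a, at 1.67, 1.53 and 0 TPM in 3TG and 1.52, 4.77 and 2.13 TPM in 2TG, overlapped between groups (log2 −0.92, and −0.46 without 3TG replicate 3). Erythrocyte markers summed to 2673 to 4070 TPM in 3TG and to 13230, 4668 and 6187 TPM in 2TG, with 7 of 7 lower by sign. The highest of these sums was in 2TG replicate 1, the 2TG library with the lowest cox7a1 level. Exocrine pancreas markers summed to 1003 to 27491 TPM in 3TG and to 195, 2602 and 3456 TPM in 2TG, with 11 of 11 higher by sign. All 11 had an unadjusted p under 0.05 in limma, against a background of 0.89%. Their median log2 difference was 3.36, and 4.78 without 3TG replicate 3. In this list amy2a and ela2 are at 0 in at least 1 library. Photoreceptor markers summed to 692 to 2033 TPM in 3TG and to 226, 1978 and 2244 TPM in 2TG. 2TG replicate 1 thus held the extreme 2TG sum for each of these 3 sets of markers. Their part in the values of the chain was not tested.

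The lin28a activation line had the largest gap between the genomes of the 4 lines. All 13 mitochondrial genes were lower in 3TG by sign, with a median log2 difference of −0.30, against −0.11 for 86 nuclear subunits, of which 67 were lower, and −0.05 for all genes tested. The gap was −0.20. The difference of median levels per library had an SD of 0.33 between replicates of a group, a spread of single libraries. The gap was −0.10 without 2TG replicate 3, with 11 of 13 genes lower, and −0.34 without 2TG replicate 1. By complex the mitochondrial medians were −0.45 in complex I, −0.23 in complex III and −0.20 in complex IV, and the nuclear medians were −0.11, −0.13 and −0.11 in the same order, −0.13 in complex II and −0.06 in complex V.

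The complex I messages of lin28a show where that spread lies. mt-nd1, a membrane subunit near the ubiquinone site, stood at 4806, 2659 and 5306 TPM in 3TG and at 4710, 5648 and 7346 TPM in 2TG (log2 −0.51, SE 0.28; limma adjusted p = 0.980). mt-nd2, a proton-pumping subunit, stood at 2766, 1631 and 3830 TPM in 3TG and at 3046, 4010 and 4700 TPM in 2TG (log2 −0.58). For both, 3TG replicate 2 was lowest and 2TG replicate 3 highest, and the groups overlapped. mt-nd3, a membrane subunit, stood at 4621, 2467 and 4626 TPM in 3TG and at 4738, 5169 and 6275 TPM in 2TG, which did not overlap (log2 −0.51). mt-nd4l stood at 5291, 4385 and 5710 TPM in 3TG and at 5648, 6762 and 7634 TPM in 2TG (log2 −0.38, SE 0.16; unadjusted p = 0.048, adjusted p = 0.980 in limma), with 3TG replicate 3 above 2TG replicate 1.

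The other mitochondrial complexes of lin28a had steadier replicates. mt-co3 stood at 13353, 12048 and 12805 TPM in 3TG and at 13849, 15666 and 17136 TPM in 2TG (log2 −0.28, SE 0.13; unadjusted p = 0.053, adjusted p = 0.980 in limma). mt-atp6 stood at 8706, 8004 and 8697 TPM in 3TG and at 8947, 10221 and 11363 TPM in 2TG (log2 −0.26). In both genes each 3TG library lay below each 2TG library. mt-cyb and mt-co1 overlapped, with log2 differences of −0.23 and −0.14.

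Among nuclear members in lin28a, sdhaf4 had the smallest p, as the complex II assembly factor that was also free of overlap in smn1. It stood at 21.6, 14.5 and 19.2 TPM in lin28a 3TG and at 26.3, 28.8 and 29.0 TPM in 2TG (log2 −0.60, SE 0.22; unadjusted p = 0.025, adjusted p = 0.980 in limma). atp5mea, a dimer-interface subunit of ATP synthase, stood at 125, 72.4 and 130 TPM in 3TG and at 133, 147 and 173 TPM in 2TG (log2 −0.50). ndufs3, a core subunit of complex I, stood at 114, 101 and 142 TPM in 3TG and at 130, 170 and 153 TPM in 2TG, and ndufa3, an accessory subunit, at 44.7, 33.9 and 51.7 TPM in 3TG and at 50.8, 56.6 and 58.9 TPM in 2TG. atp5mea did not overlap between groups, while ndufs3 and ndufa3 did as deposited and did not after centring.

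By sign 26 of 113 lin28a members were higher in 3TG, 2 of them without overlap. ndufaf3 stood at 37.4, 41.4 and 43.2 TPM in 3TG and at 35.7, 33.9 and 19.3 TPM in 2TG (log2 0.49, adjusted p = 0.980 in limma). cox8a stood at 1186, 1120 and 1151 TPM in 3TG and at 1118, 1009 and 616 TPM in 2TG (log2 0.38). The groups were apart in both genes, with 2TG replicate 3 far below the others. For cox8a 3TG replicate 2 and 2TG replicate 1 nearly met, at 1120 and 1118 TPM. After centring only ndufaf3 stayed free of overlap. cox7a1 overlapped, at 33.5, 7.16 and 8.02 TPM in 3TG and 31.3, 19.3 and 31.1 TPM in 2TG.

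In lin28a, 9 members were lower in 3TG without overlap and 2 higher, against backgrounds of 4.06% and 2.5%. The 9 are 7.96% of the members. After centring, 12 members (10.6%) were lower and 1 higher, against 3.77% and 3.81% of all genes. The 12 were mt-nd3, mt-nd4, mt-nd4l, ndufa3, ndufa7, ndufs3 and ndufs6 of complex I, mt-co3, mt-atp6, atp5mea, atp5meb and sdhaf4. Neuron markers in this line summed to 408 to 900 TPM in 3TG and 877 to 957 TPM in 2TG, with 8 of 8 lower by sign, and photoreceptor markers to 1009 to 3102 TPM in 3TG and 2754 to 3115 TPM in 2TG, with 6 of 6 lower by sign. The low library in both is 3TG replicate 2, at 408 and 1009 TPM, which is also lowest for mt-nd1, mt-nd2 and mt-nd3, while the other 3TG libraries lay at 890 and 900 TPM for neurons and 3102 and 3034 TPM for photoreceptors. Intestine markers summed to 707 to 5055 TPM in 3TG and 2864 to 4815 TPM in 2TG (8 of 8 lower by sign), and exocrine pancreas markers to 633 to 18305 TPM in 3TG and 8329 to 20972 TPM in 2TG (11 of 11 lower), again lowest in 3TG replicate 2. Skeletal muscle markers summed to 63203 to 78547 TPM in 3TG and 67874 to 72913 TPM in 2TG. Their part in the member values was not tested.

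The sox9b activation line, whose 6 libraries share a number format, had small median differences. The mitochondrial median was −0.01 on the log2 scale, the nuclear median −0.04 and the median of all genes 0.07. The gap between the genomes was 0.03, and the difference of median levels per library had an SD of 0.07 between replicates of a group. No complex had a median beyond −0.06 or 0.02, by genome or pooled over a genome's genes, with mt-atp6 at −0.12 and mt-atp8 at 0.12 in complex V. Relative to all genes, nuclear subunits lay slightly low: 82 of 86 were below 0 after median centring, with a median of −0.12. As deposited, 64 of 86 were lower, and without 2TG replicate 3 the number was 22.

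The named sox9b members had small effects. cox5b2, a subunit of complex IV, stood at 27.5, 21.8 and 22.5 TPM in 3TG and at 36.1, 27.1 and 38.3 TPM in 2TG, where 3TG replicate 1 overlaps 2TG replicate 2 (log2 −0.47, SE 0.17; unadjusted p = 0.024, adjusted p = 1.00 in limma). ndufaf6, an assembly factor of complex I, stood at 12.5, 11.4 and 13.1 TPM in 3TG and at 9.64, 10.25 and 9.97 TPM in 2TG, without overlap (log2 0.28, adjusted p = 1.00 in limma). cox6a2, in mammals the muscle isoform of a complex IV subunit, stood at 10.1, 21.3 and 18.8 TPM in 3TG and at 21.4, 15.6 and 38.2 TPM in 2TG. uqcr10, ndufa4l and ndufa2 differed by −0.18, −0.12 and −0.13 on the log2 scale and overlapped. Only ndufaf6 was higher and only ndufb11 lower without overlap among the 113 members, 0.885% in each direction, against backgrounds of 3.6% and 1.15%. After centring 0 were higher and 1 lower (sdhaf2, an assembly factor of complex II), against 2.32% and 2.6%.

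**Figure D3:**
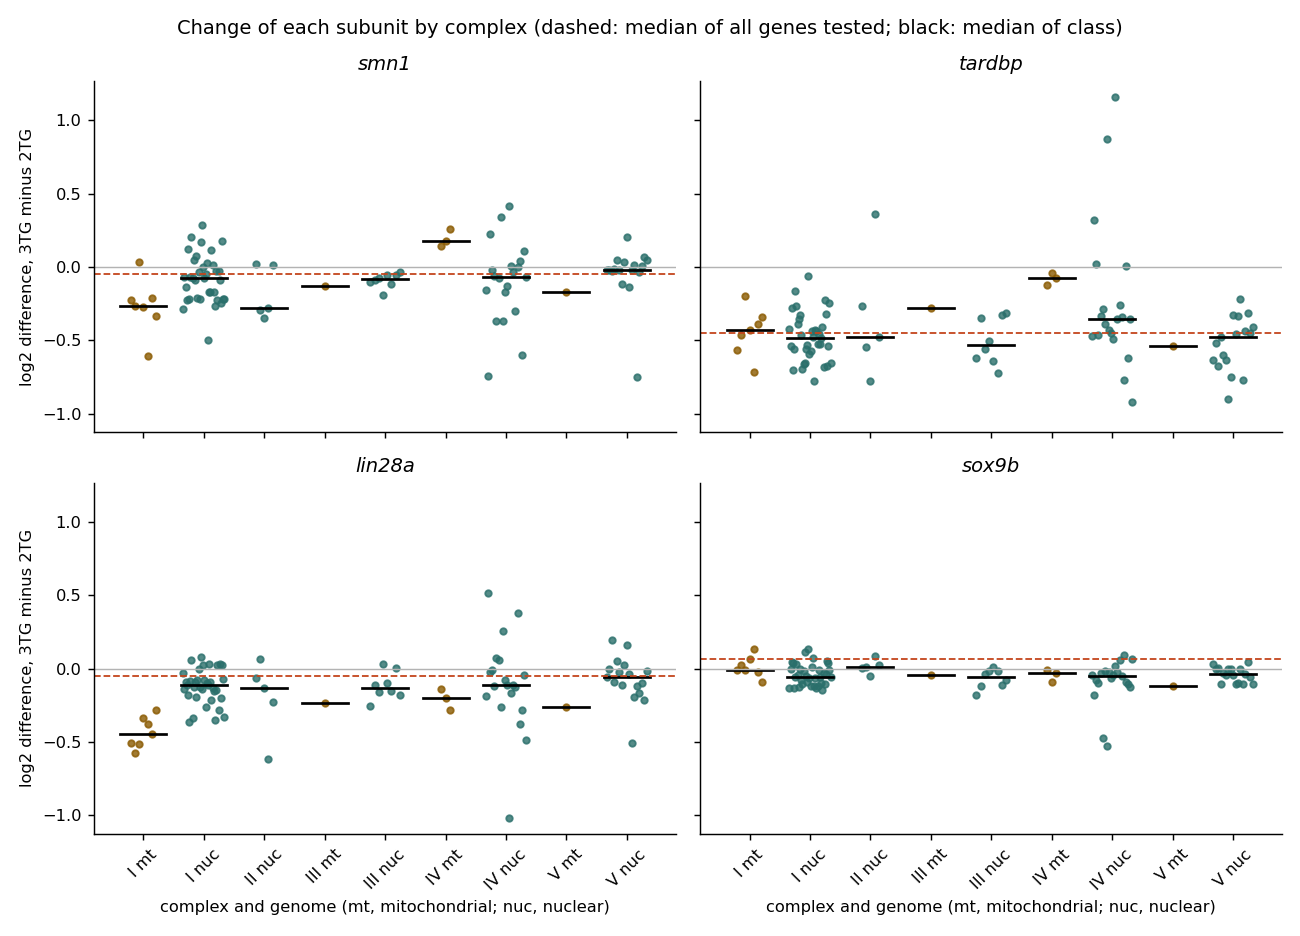
Log2 difference, 3TG minus 2TG on the log2(TPM + 1) scale, of each tested subunit by complex and genome in the 4 lines; a point is a gene (brown mitochondrial, green nuclear), a bar the median of its class, and the dashed line the median of all genes tested. mt-atp8 is left out. In smn1 the medians of the mitochondrial genes of complex IV (0.18) and complex I (−0.27) lie on either side of 0. Of the 7 complex I genes 1 lies above 0. In tardbp most points follow the all-gene median of −0.45, and in sox9b points lie near 0.

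The composition of the mitochondrial messages was described next, as the level of each gene over the mean of 12 genes (without mt-atp8) in the same library, which removes scaling between libraries. These ratios were chosen after values had been seen and have no test. Relative mt-co3 was higher in 3TG without overlap in smn1 and in tardbp, and relative mt-co2 in tardbp. Relative mt-nd4l was lower in 3TG without overlap in smn1 (0.755, 0.571 and 0.494 in 3TG, 0.930, 0.949 and 0.864 in 2TG) and in tardbp (0.466, 0.627 and 0.697 in 3TG, 0.713, 0.894 and 0.851 in 2TG), and higher in sox9b. Relative mt-nd4 was lower in smn1 and higher in sox9b. In lin28a no gene's share was free of overlap.

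The cytochrome oxidase messages over mt-nd1 plus mt-nd2, which lie upstream on the same strand, gave a compact measure. That ratio was 5.79, 6.41 and 10.8 in smn1 3TG against 4.93, 5.80 and 5.71 in 2TG, and 7.05, 8.74 and 5.57 in tardbp 3TG against 5.26, 5.14 and 4.99 in 2TG. It was 6.50, 11.8 and 5.09 in lin28a 3TG against 6.35, 5.73 and 5.34 in 2TG, and 4.96, 4.85 and 5.10 in sox9b 3TG against 5.07, 5.56 and 4.83 in 2TG. The groups were apart in tardbp. A few libraries (smn1 3TG replicate 3, tardbp 3TG replicate 2 and lin28a 3TG replicate 2) stood far above the median of 5.56. All of them are 3TG libraries with 6 significant digits.

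The ratio of mt-nd4l to its neighbour mt-nd4 was 2.07, 1.77 and 1.66 in smn1 3TG against 2.20, 2.46 and 2.25 in smn1 2TG. The ratio of mt-co3 to its neighbour mt-atp6 was 1.38, 1.68 and 2.60 in smn1 3TG against 1.22, 1.42 and 1.43 in smn1 2TG. In tardbp it was 1.60, 2.37 and 1.36 in 3TG against 1.18, 1.23 and 1.35 in 2TG. In lin28a it was 1.53, 1.51 and 1.47 in 3TG against 1.55, 1.53 and 1.51 in 2TG, a narrower range. Adjacent genes thus did not keep a fixed ratio between the libraries of smn1 and of tardbp. In smn1 the groups were apart for mt-nd4l over mt-nd4 and overlapped for mt-co3 over mt-atp6, and in tardbp they were apart for the second ratio by a narrow margin.

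The number format moved with the same profile. Relative mt-co2 ran from 2.12 to 2.39 in libraries with 6 decimals and from 2.48 to 3.11 in those with 6 significant digits, without overlap, and relative mt-nd6 from 0.316 to 0.471 and from 0.181 to 0.316, just overlapping. Libraries with 6 decimals make up 1 of 3 in smn1 3TG and 2 of 3 in smn1 2TG. Within smn1 libraries of 6 decimals the gap between the genomes was −0.06, and within those of 6 significant digits −0.13. In absolute TPM, 6 of the 114 members were higher in all 10 libraries with 6 decimals than in all 14 others (ndufv2, ndufb7, ndufs8a, sdhb, atp5mf and mt-atp8), against a background of 1.25% of genes, and 0 were lower, against 0.0142%. atp5mf, a subunit of the ATP synthase membrane part, ran from 118 to 159 TPM with 6 decimals and from 26.2 to 73.0 TPM with 6 significant digits.

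**Figure D4:**
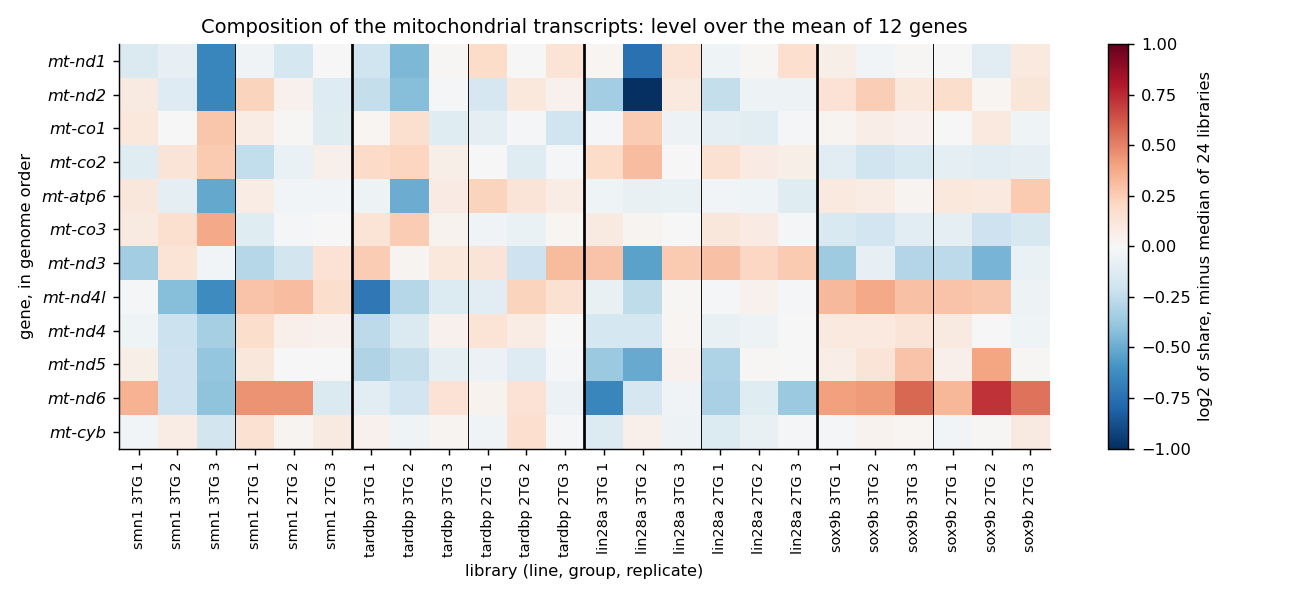
Level of each of 12 mitochondrial genes relative to their mean in the same library, as log2 minus the median of the 24 libraries (colour), with genes in genome order and libraries by line, 3TG before 2TG. In smn1 3TG replicate 3 and in lin28a 3TG replicate 2 mt-co1 and mt-co2 lie above and several complex I messages below the median library, and sox9b libraries resemble each other.

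Several subunits exist as paralogs that differ in tissue, and the share of each within its family was followed in 7 families (cox4i, cox6a, cox7a, cox8, ndufa4, atp5mc and atp5if1; 18 genes) and in 7 further pairs. cox4i1 made up a median of 88.8% of the cox4i family and cox4i2, in mammals the lung isoform induced in low oxygen, 9.20%. The isoforms of heart and muscle in several mammals were minor: cox6a2 held 2.38%, cox7a1 2.13% and cox8b 4.83% of their families. The cox7a family here is cox7a1 and cox7a2a alone. A COX7A2 entry written in capitals, at 0 to 76.0 TPM with a median of 16.5 TPM, is outside the rule and not counted in it. In the ndufa4 family ndufa4l held 84.1% and ndufa4 15.5%. In the atp5mc family atp5mc1 held 25.0% and atp5mc3a 11.8%.

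Shares of these 32 genes overlapped between 3TG and 2TG in all cases in smn1, lin28a and sox9b. In tardbp 8 did not overlap, 3 higher and 5 lower in 3TG. No share over all genes exists as a background for this count, and shares within a family are complementary, so the 8 are not independent. The cox7a1 share was 4.65%, 4.27% and 3.63% in tardbp 3TG against 0.708%, 1.35% and 2.69% in 2TG, with all 3TG libraries higher. The atp5if1a share was 39.7%, 43.5% and 46.4% in 3TG against 57.0%, 61.9% and 52.6% in 2TG, with atp5if1b making up the rest. The atp5mc3b share was 66.3%, 74.5% and 62.9% in 3TG against 57.9%, 60.1% and 61.4% in 2TG, and the cox4i1 share 88.3%, 87.1% and 84.9% in 3TG against 92.0%, 90.5% and 89.2% in 2TG. Each of these held in 3TG replicate 3 as well, the library with the low TPM sum. A share within a family does not depend on that sum, and what lies behind the differences was not tested.

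**Figure D5:**
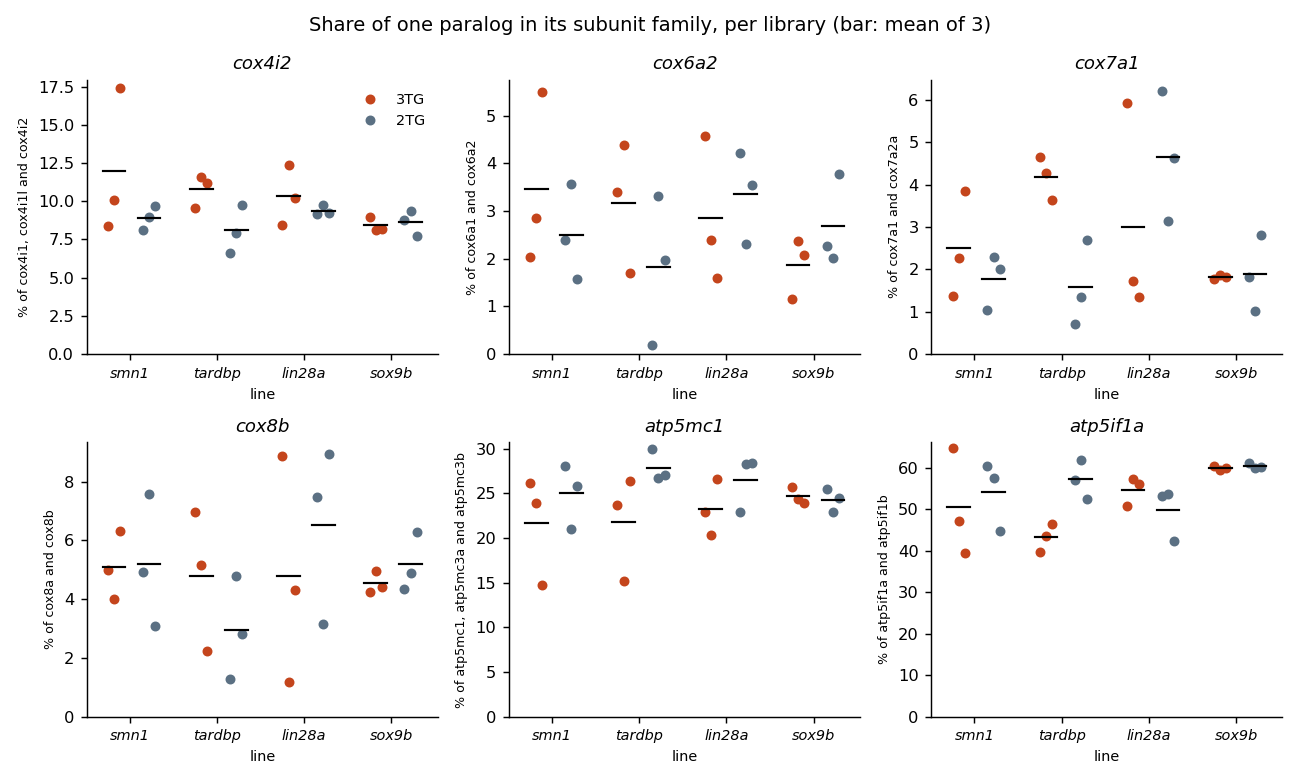
Share (percent) of a paralog in the summed TPM of its subunit family, per library (points) with the mean of 3 (bars), 3TG left of 2TG in each line. In tardbp the cox7a1 share lies at 3.63% to 4.65% in 3TG and 0.708% to 2.69% in 2TG, and the atp5if1a share at 39.7% to 46.4% in 3TG and 52.6% to 61.9% in 2TG.

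Assembly factors were looked at as a class. The 11 that match the symbol rule had medians of −0.11 in smn1 (10 of 11 lower by sign), −0.33 in tardbp (11 of 11), 0.04 in lin28a and −0.02 in sox9b. The median of all genes in tardbp was −0.45. Without tardbp 3TG replicate 3 the median of the 11 was 0.05, with 7 higher and 4 lower, against −0.16 for all genes. A list of further assembly factors outside the rule, 42 of whose 48 symbols are in the tables, had medians of −0.20 (smn1), −0.46 (tardbp), −0.10 (lin28a) and −0.02 (sox9b). In smn1 37 of these 42 were lower by sign, 6 of 42 without overlap against a background of 11.2%, and their summed level was 1038 to 1223 TPM in 3TG and 1273 to 1295 TPM in 2TG. None passed limma in any line, and 3 lower genes in smn1 (background 6.44%), 3 lower in tardbp (12.9%) and 1 higher in lin28a (0.7%) had an unadjusted p under 0.05 in limma. foxred1, a complex I assembly factor, stood at 8.73, 7.75 and 5.24 TPM in smn1 3TG and at 12.8, 14.4 and 10.7 TPM in 2TG (log2 −0.74, SE 0.24; unadjusted p = 0.013, adjusted p = 0.351 in limma). timmdc1, which acts on the same complex, stood at 31.1, 27.0 and 27.1 TPM in 3TG and at 35.6, 43.5 and 38.4 TPM in 2TG, and cox18, which inserts part of mt-co2 into the membrane, at 4.64, 6.28 and 5.48 TPM in 3TG and at 8.68, 7.81 and 8.12 TPM in 2TG. In all 3 genes the groups were apart.

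Genes around the chain were read from further lists. None of their genes passed limma in any line. In tardbp, medians of the lists below are to be read against −0.45 for all genes, and against −0.16 without 3TG replicate 3. Without that library the list medians there were −0.16 (further assembly factors), 0.21 (carriers), −0.20 (electron entry), −0.19 (mitochondrial DNA maintenance), −0.15 (citric acid cycle), −0.15 (biogenesis regulators) and 0.14 (heat shock genes). Among 14 carriers of adenine nucleotides, phosphate and protons, 12 were higher by sign in smn1 3TG, 4 of them at an unadjusted p under 0.05 in limma against a background of 5.87% (2 higher in tardbp against 0.89%, 0 in lin28a and sox9b), with medians of 0.23 (smn1), −0.18 (tardbp), −0.14 (lin28a) and 0.03 (sox9b). slc25a4, the exchanger of ADP and ATP, stood at 641, 663 and 554 TPM in smn1 3TG and at 423, 456 and 421 TPM in 2TG, without overlap (log2 0.51, SE 0.17; limma adjusted p = 0.357). Its summed list was 8086 to 9534 TPM in smn1 3TG and 7183 to 7725 TPM in smn1 2TG. ucp1, an uncoupling carrier, ranged widely, at 90.9, 410 and 1503 TPM in smn1 3TG and 25.3, 191 and 61.5 TPM in 2TG. In tardbp ucp1 stood at 483, 1615 and 30.6 TPM in 3TG and at 20.1, 66.9 and 69.1 TPM in 2TG, overlapping in both lines.

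The list of cytochrome c, cytochrome c1 and electron entry genes had 19 genes tested, with medians of −0.08 (smn1), −0.49 (tardbp), −0.05 (lin28a) and 0.05 (sox9b), and 1, 2, 0 and 0 lower genes at an unadjusted p under 0.05 in limma. The share of all genes lower at that p was 6.44% (smn1), 12.9% (tardbp), 1.08% (lin28a) and 0.392% (sox9b). The list of mitochondrial DNA maintenance, transcription and RNA processing had 29, with medians of −0.14, −0.47, −0.10 and 0.04 in the same order of lines. Its sum was 403 to 477 TPM in smn1 3TG and 496 to 553 TPM in smn1 2TG, without overlap, and 21 of 29 were lower by sign, 3 of them at that p. The 22 genes of the citric acid cycle and pyruvate dehydrogenase had medians of 0.05, −0.55, −0.07 and 0.03, with 0, 1, 0 and 0 lower at that p. Heat shock genes had medians of −1.99, 0.22, 0.99 and −0.26 over 10 genes, with 7 lower in smn1 (6.44% of all genes) and 1 higher in tardbp (0.89%) at that p.

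Regulators of mitochondrial biogenesis had medians of 0.12 (smn1), −0.53 (tardbp), 0.01 (lin28a) and 0.12 (sox9b). Of 13 tested in tardbp, 2 were lower and 0 higher at an unadjusted p under 0.05 in limma (background 12.9% and 0.89%). Without overlap 4 were lower and 0 higher there (29.1% and 0.176%). Of 14 tested in smn1, 2 were higher at that p (5.87%) and 3 without overlap (7.96%), with 0 lower. In sox9b these counts were 1 higher (0.826%) and 3 higher (3.6%), with 0 lower, and in lin28a all were 0. In tardbp nrf1, a transcription factor that acts on many nuclear respiratory genes, stood at 12.2, 13.9 and 9.08 TPM in 3TG and at 32.2, 29.7 and 25.9 TPM in 2TG (log2 −1.27, SE 0.39; unadjusted p = 0.0045, adjusted p = 0.330 in limma; −1.11 without 3TG replicate 3). gabpa, an ETS factor with a like role, stood at 13.2, 14.9 and 8.30 TPM in 3TG and at 33.0, 26.5 and 27.4 TPM in 2TG (log2 −1.22, adjusted p = 0.335 in limma; −0.99 without 3TG replicate 3). In both genes each 3TG library lay below each 2TG library. In smn1 esrrga, an oestrogen-related receptor, stood at 16.8, 14.8 and 14.7 TPM in 3TG and at 8.54, 10.9 and 10.4 TPM in 2TG (log2 0.59, adjusted p = 0.353 in limma), and ppargc1b, a coactivator, at 14.3, 16.2 and 12.8 TPM in 3TG and at 7.69, 9.42 and 12.4 TPM in 2TG.

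Whether the lines differed in their 3TG minus 2TG difference was asked in a joint limma model of all 24 libraries (6 pairs of lines, 21099 genes). No member passed in any pair, where 0% of all genes passed in each. At an unadjusted p under 0.05, limma gave 5 higher and 0 lower members of 114 for smn1 minus tardbp, 0 and 2 for smn1 minus lin28a, 0 and 2 for smn1 minus sox9b, 1 and 9 for tardbp minus lin28a, 0 and 8 for tardbp minus sox9b, and 0 and 0 for lin28a minus sox9b. Over all 21099 genes, 2130 were higher and 111 lower at that p for smn1 minus tardbp. The counts were 734 and 830 for smn1 minus lin28a, and 111 and 599 for smn1 minus sox9b. For tardbp minus lin28a they were 295 and 3754, and for tardbp minus sox9b 36 and 4363. For lin28a minus sox9b they were 69 and 140. For each pair the difference between lines was also taken per gene, and the nuclear median of these was subtracted from the mitochondrial median, with no test. The result was −0.15 for smn1 minus tardbp, 0.20 for smn1 minus lin28a and −0.16 for smn1 minus sox9b. It was 0.33 for tardbp minus lin28a, 0.03 for tardbp minus sox9b and −0.33 for lin28a minus sox9b. These values are not differences of the gaps of single lines, which were −0.15 (smn1), 0.07 (tardbp), −0.20 (lin28a) and 0.03 (sox9b). The division of complexes I and IV in smn1 is not shown to be particular to that line. The mitochondrial median of complex IV also lay above that of complex I in tardbp, at −0.07 against −0.43 (0.44 against −0.06 without 3TG replicate 3). In lin28a the 2 medians were −0.20 and −0.45, both below 0. In sox9b complex IV lay slightly lower, at −0.03 against −0.01.

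Likeness between genes was described over libraries, with no test. Over the 24 libraries, with each library centred on its group mean, the genes most like the mean of the 12 mitochondrial genes were mt-nd4 (Pearson r = 0.979), mt-cyb (0.954), atp5pb of the ATP synthase stalk (0.954), rtn1a (0.950) and ndufb5 (0.944). Among those most like the mean of the nuclear subunits were atp5l (0.971), cox4i1 (0.962), atp5pb (0.958) and ndufa11 (0.956). Members took 27 of the 100 genes most like the mitochondrial mean and 33 of the 100 most like the nuclear mean. The members are themselves part of the means, so that some of this likeness is built in. The median r of the averaged members was 0.879 for mitochondrial genes and 0.848 for nuclear subunits, against 0.433 and 0.378 over all genes. These r share library scaling, and tardbp 3TG replicate 3 weighs heavily in them. Over the 21 libraries without the tardbp 3TG group, 10 and 20 of the top 100 were members, and the r between the means of the genomes was 0.656, against 0.917 over all 24. mt-atp8 was left out of that mean after its zeros had been seen. With it, the genes most like the mean were appl2, pccb, wtap, ppp2r5ea and pdha1a, none of them members. Members then took 3 of the top 100 over the 24 libraries and 2 over the 21 without the tardbp 3TG group. The r between the means of the genomes was then 0.781 and 0.543.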

How the data were processed

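RNA was measured in 24 libraries of whole zebrafish embryos, 3 per group. The deposited values are TPM, a length-scaled share of transcripts, with 25432 genes in the table of each line, per the file headers. The submitters' processing notes list Trimmomatic 0.39, STAR 2.7.10b, Salmon 1.10.1, GRCz11 and danRer11, without their roles. TPM hold no read counts, so depth is unknown, no counting interval is given and no count model was used. The smn1 table has 13 unnamed columns, which were not used. Values were analysed as log2(TPM + 1), unscaled, per line, for genes that reached 1 TPM in 3 or more of its 6 libraries, with limma 3.58.1 in R 4.3.3 (trended prior, two-sided, Benjamini-Hochberg over all genes tested, threshold 0.05). Differences between lines came from 1 fit over 24 libraries. The test was tried on simulated data.

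A result of 1 further member that the rule names is not reported here. Members and lists were chosen with earlier results of these data known. Named in every line were the mitochondrial genes, the most abundant and the catalytic or core nuclear subunits, cox5aa and the paralog families. In each line the 6 nuclear members of smallest p were named too. ndufa4 and its paralogs count as complex IV. Other members are named for groups that did not overlap and were chosen after their values were seen, as were examples from lists. Of the members, 113 have a RefSeq entry (assembly GRCz12tu), used for names and for the order of mitochondrial genes; no coordinates or sequences are printed, and mitochondrial ribosomal RNA was not analysed here. Lists cover further assembly factors, cytochrome c and electron entry, carriers, mitochondrial DNA maintenance, biogenesis regulators, the citric acid cycle, heat shock genes and tissue markers. Alternatives were other pseudocounts and filters, median centring, quantile normalization, rescaling without mitochondrial genes, library weights, other priors, a replicate block, 1 fit over 24 libraries and each library left out.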

Additional observations from a re-analysis of the deposited data

How the results depend on the processing

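The count of 0 members called held in smn1, lin28a and sox9b under every alternative run, replicate block included, and in tardbp under 16 of 21. In tardbp, with its low library, calls hung on the model: 2 genes as deposited, 10 with a robust prior, 28 with a replicate block, 53 with median centring without 3TG replicate 3, 3108 with 1 fit over 24 libraries and 8510 with library weights; 0 with a pseudocount of 0.1, with no filter, with median centring (alone or with the block), with quantile normalization, and with rescaling without mitochondrial genes (alone or without the 20 most abundant others). Members called there were 1 with the block (mt-atp8), 7 with 1 fit over 24 libraries and 21 with library weights. Among those called under the weights, atp5if1b (0.45), mt-co2 (0.61), mt-co3 (0.52), mt-nd3 (0.62) and uqcrq (0.46) turned positive on the log2 scale. So did ndufb2 (0.38), ndufs6 (0.42), atp5mea (0.43) and sdhaf1 (1.26). The weights could not be fitted to convergence for some genes. With each library left out in turn, genes called ran from 0 to 176 in tardbp and from 0 to 2 in smn1, and members called from 0 to 1 in tardbp (mt-atp8, whose log2 difference was −2.82 as deposited and −0.88 without 2TG replicate 2, the library there with 6 decimals). Library weights called 10 genes in smn1 and 27 in sox9b, and an untrended prior 5 in smn1.

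The gap between mitochondrial and nuclear medians in tardbp was 0.07, −0.14 under quantile normalization, and 0.00497 to 0.12 with a library left out. With a library left out it ran from −0.19 to −0.06 in smn1, −0.34 to −0.10 in lin28a and 0.01 to 0.07 in sox9b. With library weights it was −0.04 in sox9b, against 0.03 as reported, and 0.135 in tardbp. The cause of these changes was not tested. Whether replicate numbers pair the libraries is not settled. Correlations of same-numbered libraries ran from −0.338 to 0.376 over the 4 lines. In lin28a they were 0.376, 0.054 and 0.242, each the highest correlation of its 3TG library. The block there gave 252 higher and 483 lower genes at an unadjusted p under 0.05 in limma. Without the block these counts were 137 and 212. It called 0 genes in smn1, lin28a and sox9b, which with 3 libraries a group cannot exclude pairing. With 3 libraries a group and unknown depth, precision is set by the spread between replicates. The comparisons by number format, the overlap counts after centring and without a library, the list medians without tardbp 3TG replicate 3, the block with centring and the means without mt-atp8 were chosen after seeing the data.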
